A study of Mus musculus with 12 samples.

Results

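Potassium channel genes were followed across the left and right ventricles of mouse embryos with and without a functional Nos3 gene. They were taken as all genes whose only symbol in the platform annotation begins with Kcn, leaving out the noncoding RNA Kcnq1ot1, the inward rectifier gene Kcnj8 and 1 further gene. The rule used no measured value to choose a gene. It gave 81 genes, read by 159 probe sets, of 18194 genes with a single symbol on the array. Of the 81, 36 had 1 probe set and 45 had several, at most 5, and the probe set with the highest mean over the 12 arrays stood for the gene.

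Potassium channels let potassium leave the cell and so set the resting potential of heart muscle cells and end each action potential. Voltage-gated pores open on depolarisation and carry the transient outward and delayed rectifier currents, inward rectifiers hold the resting potential or answer to acetylcholine or to the cell's ATP, and two-pore-domain channels carry a background leak. Most of the channels classed here as calcium- or sodium-activated open when these ions rise inside the cell. Auxiliary subunits of the Kcne, Kcnip, Kcnab and Kcnmb families bind the pores and change their gating or their transport to the membrane. By symbol stem the 81 genes comprised 30 voltage-gated pore subunits, 15 auxiliary or regulatory subunits, 14 inward rectifiers, 12 two-pore-domain channels, 8 calcium- or sodium-activated channels and 2 noncoding RNAs antisense to a channel gene (Kcnmb4os1 and Kcnmb4os2).

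The samples were left and right ventricles (LV and RV) cut from embryos at 14.5 days post coitum. Wild-type embryos (WT) were of the outbred CD1 stock, and the mutant embryos (KO) were Nos3-/- of strain B6.129P2-Nos3tm1unc/J, a targeted allele of the endothelial nitric oxide synthase gene present in every cell of the animal. Each of the 4 groups, WT_LV, WT_RV, KO_LV and KO_RV, held 3 arrays, each of RNA pooled from 15 to 30 embryos. Genotype went with strain throughout, so the Nos3 allele and the strain cannot be told apart in any genotype comparison. Nothing in the labels gives the litters or days of the pools, so p-values measure the spread between these pools, and 3 arrays a group limit the precision. Values are log2 expression, on which a difference of 1 is a factor of 2.

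Of the heart muscle genes fixed as markers, 8 of 8 lay above the median of all values, and their mean was between 13.52 and 13.92 on every array. Nos3 read 0.41 lower in KO than in WT left ventricles (limma adjusted p = 0.0376) and 0.66 lower in right ventricles (adjusted p = 0.00983). Whether its probe set lies in the altered part of the gene is not given in the sources used here. The 24 control probe sets for poly-A spike-in RNA averaged 8.89 to 8.96 on 4 arrays, the 3 of WT_LV and WT_RV replicate 3, and 7.35 to 8.47 on the other 8. WT_RV replicate 3 also lay with the WT_LV arrays on the first principal component of all genes, at -29.4 against -8.12 and -10.5 for the other WT_RV arrays. Results that rest on these arrays are therefore given with and without that array, or with high against low control level (4 against 8 arrays) added to the model. In the left ventricle the term takes its information from WT_RV replicate 3 alone, since every WT_LV array was high and every KO_LV array was low. For KO against WT in right ventricles and right against left in KO, adding the term and leaving out WT_RV replicate 3 are the same fit. Counts of other fits in those comparisons include it under both names.

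Fewer potassium channel genes than genes in general lay above the median of all values, which was 5.67. The mean was above it in 34 of 81 (42.0%), against 64.7% of all genes, and the median of the gene means was 5.51 against 7.05. Of the 81, 27 lay above the median on all 12 arrays, 36 on 0 arrays and 18 on some. The authors' method gives every probe set a value, so a value near or below the median may be background, and the brightness of different probe sets is no measure of the relative amounts of their RNAs. By class, 9 of 15 auxiliary subunits, 6 of 14 inward rectifiers, 12 of 30 voltage-gated pores, 3 of 8 ion-activated channels, 4 of 12 two-pore-domain channels and 0 of 2 antisense RNAs lay above it. A mean above 7 was reached by 14 genes and one above 8 by 7, and 12 lay below 4.

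The brightest probe set of all was that of Kcne1, the small subunit that slows the opening of the Kcnq1 pore, with a mean of 10.84. Kcnq1, the pore of the slow delayed rectifier, had a mean of 8.01 and read 7.76 to 8.26 on the 12 arrays. Kcng2, a modifier subunit that is silent on its own and alters the pores it joins, was the brightest of the voltage-gated pore genes with 9.80. Among inward rectifiers it was Kcnj11, the pore of the ATP-sensitive channel, with 8.71, followed by Kcnj5, a subunit of the acetylcholine-activated channel, with 8.22. Kcnk3, an acid-sensitive leak channel, and Kcnk6, another two-pore-domain gene, both had a mean of 8.12. Kcnn2, a small-conductance calcium-activated channel, led its class with 6.74. Kcnj2, a main pore of the inward rectifier current of adult ventricle, had a mean of only 3.29, with 3.14 to 3.53 on the 12 arrays. Kcnj4 and Kcnj12, which also encode pores of that current, read 5.71 to 6.31 and 5.44 to 6.80. Kcnh5, a voltage-gated gene, had the lowest mean of the 81, at 2.81.

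In most of these genes the 4 group means lay within 0.5 of each other. The 4 group means of a gene spanned a median of 0.28, beside a median SD within a group of 0.10 to 0.13. The span passed 0.25 in 45 genes, 0.5 in 19 and 1 in 4, which were Kcnmb1, Kcnk3, Kcnc2 and Kcnj12. Spans over all genes were not computed. Kcnj16 had the smallest span, 0.03, at a mean of 3.93.

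**Figure D1:**
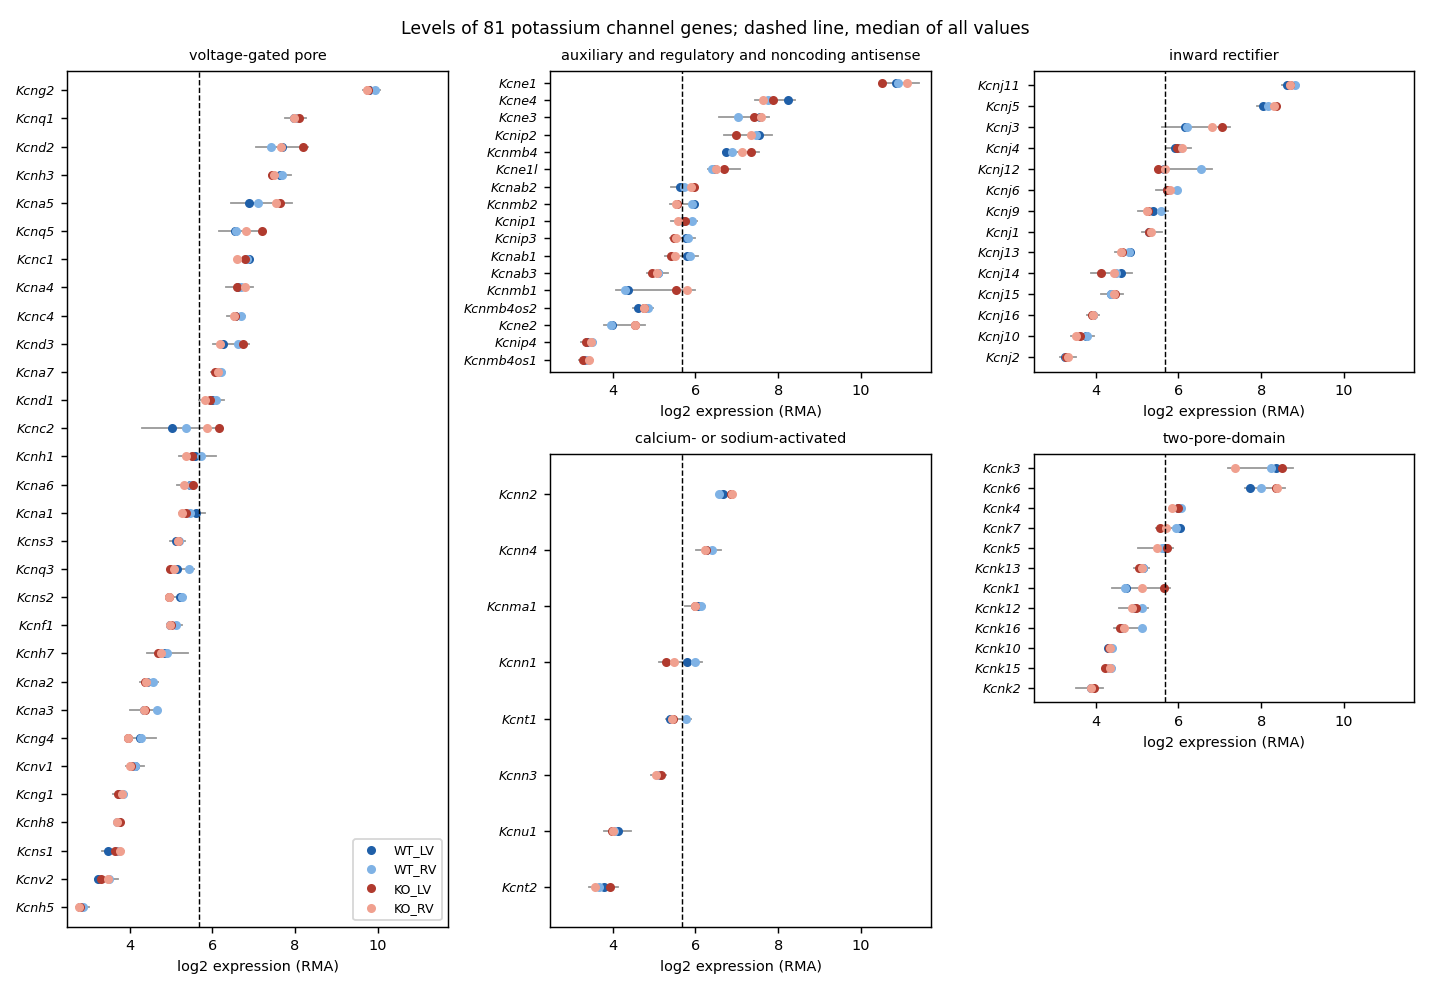
Group means (coloured points, n = 3 arrays each) and the range over the 12 arrays (grey lines) of the 81 genes by class, on the log2 scale of the deposited values; the dashed line is the median of all values, 5.67. Of the 81 genes, 34 have a mean to the right of the line, and in most rows the 4 points lie within 0.5 of each other.

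The first comparison asks how channel expression in the left ventricle differs between KO and WT. It gave 23 calls among the 81 genes at an adjusted p of 0.05 (28.4%), beside 30.9% of all genes tested. Of these, 13 were higher in KO (all genes, 18.6%) and 10 lower (all genes, 12.3%). The median difference of the 81 was -0.00 beside -0.01 for all genes. Of the 34 genes above the median 14 were called (41.2%; all such genes, 42.5%), and of the 47 others 9. The share of channel genes called was thus near that of other genes. The arrays of the groups did not overlap for 30 of the 81 genes, beside 44.4% of all genes. The direction split moved with scaling, from 13 higher and 10 lower to 14 and 5 with median-centred arrays, a step that moved the median of all genes from -0.01 to 0.08, and to 11 and 10 with quantile normalization once more.

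The auxiliary subunits held 10 of the left ventricular calls, 4 higher and 6 lower in KO. These were 66.7% of the class, beside 30.9% of all genes. The voltage-gated pores held 6 (5 higher and 1 lower, 20.0% of the class). The inward rectifiers (21.4%) and the two-pore-domain channels (25.0%) held 3 each, 2 higher and 1 lower. The ion-activated channels had 1 lower (12.5%) and the antisense RNAs 0. Whether these shares differ was not tested. Of the subunits of known cardiac currents, 14 were measured, and 5 rose and 2 fell. Of these 14 genes, 13 lay above the median, and 42.5% of all genes above it were called.

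Genes of the transient outward current differed in direction. Kcnd2, one of its pores, read 7.67, 7.47 and 7.88 in WT_LV and 8.05, 8.24 and 8.30 in KO_LV, so that every KO array lay above every WT array. It rose by 0.52 (SE 0.15, adjusted p = 0.0184), while its 2 further probe sets above the median gave 0.16 and 0.10, and it was not called with the mean of its probe sets. Kcnd3, the other pore, read 6.38, 6.36 and 6.01 in WT_LV and 6.68, 6.89 and 6.68 in KO_LV and rose by 0.50 (SE 0.15, adjusted p = 0.0235). Kcnip2, the calcium-binding subunit that brings these pores to the membrane, went the other way. It read 7.51, 7.27 and 7.85 in WT_LV and 6.97, 7.30 and 6.68 in KO_LV and fell by 0.56 (SE 0.15, adjusted p = 0.0136), although the arrays of the groups overlapped. Kcna4, the pore of the slow transient current, differed by -0.02 (SE 0.14, adjusted p = 0.932). The calls were lost without WT_LV replicate 2 (0.42), KO_LV replicate 2 (0.50) or KO_LV replicate 3 (0.47) for Kcnd2, without WT_LV replicate 3 (0.38) or KO_LV replicate 2 (0.43) for Kcnd3, and without WT_LV replicate 3 or KO_LV replicate 3 (-0.41 each) for Kcnip2. Those of Kcnd3 and Kcnip2 were also lost with the mean of the probe sets, and that of Kcnd3 with quantile normalization once more.

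Among delayed rectifier genes, Kcna5, the pore of the ultrarapid current, rose by 0.76 (SE 0.20, adjusted p = 0.0116). It read 6.90, 6.46 and 7.30 in WT_LV and 7.44, 7.57 and 7.93 in KO_LV, and the call was lost without WT_LV replicate 2 (0.55) or KO_LV replicate 3 (0.62). Kcne1 fell by 0.34 (SE 0.11, adjusted p = 0.038), from 10.75, 10.91 and 10.87 to 10.54, 10.53 and 10.45. The call was lost without WT_LV replicate 2 or 3 or any one KO_LV array (-0.35 to -0.30). Kcnq1, its pore, differed by 0.11 (SE 0.13, adjusted p = 0.533). Kcne4, an inhibitory subunit of the same family, fell by 0.36 (SE 0.13, adjusted p = 0.0423), and its call was lost without any one of 6 arrays (adjusted p 0.0541 to 0.15). Kcne2, of the same family but below the median, rose by 0.54 (adjusted p = 0.00858).

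Both genes of the acetylcholine-activated channel rose in KO left ventricles. Kcnj3 read 6.65, 6.10 and 5.73 in WT_LV and 6.96, 6.95 and 7.24 in KO_LV, a rise of 0.89 (SE 0.25, adjusted p = 0.015), and was not called without WT_LV replicate 3 (0.68) or KO_LV replicate 3 (0.80). The WT arrays were spread widely and the KO arrays were close together. Kcnj5 rose by 0.32 (SE 0.11, adjusted p = 0.0402), and its call was lost in 8 of the fits that left out 1 array (adjusted p 0.0504 to 0.15). Neither Kcnj3 nor Kcnj5 was called with the mean of its probe sets. The other inward rectifiers of cardiac currents were not called, with differences of 0.06 for Kcnj11, 0.01 for Kcnj2 and -0.16 for Kcnj12. Kcnj14, an inward rectifier below the median, fell by 0.50 (adjusted p = 0.0213), with a call lost without WT_LV replicate 1 or 3 or KO_LV replicate 3.

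The leak channel genes differed among themselves. Kcnk6 read 7.72, 7.75 and 7.71 in WT_LV and 8.27, 8.42 and 8.40 in KO_LV, well apart, and rose by 0.64 (SE 0.15, adjusted p = 0.00534). With the control level in the model, the Kcnk6 difference was only 0.05 (limma adjusted p = 0.942). Kcnk1 rose by 0.91 (SE 0.14, adjusted p = 0.000499), from 4.81, 4.64 and 4.78 to 5.67, 5.80 and 5.49, with a mean below the median. Kcnk7 fell by 0.49 (SE 0.09, adjusted p = 0.00116). Kcnk3 was not called in this ventricle (0.15, SE 0.17, adjusted p = 0.547).

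Of the remaining left ventricular calls, Kcnq5, a pore of a slowly opening current that muscarinic receptors close, was called at 0.66 (SE 0.14, adjusted p = 0.0034) on a probe set with a mean of 6.78, but gave -1.40 on another with a mean of 6.77. Kcnc2, a fast pore best known from neurons, rose by 1.14 (SE 0.26, adjusted p = 0.00489) with a mean below the median. Its WT_LV arrays ranged from 4.31 to 5.50 and its KO_LV arrays from 6.03 to 6.23. Kcnmb4, a subunit of the large-conductance calcium-activated channel, rose by 0.59 (adjusted p = 0.000618), and Kcnab2, a cytoplasmic subunit of voltage-gated pores, by 0.35 (adjusted p = 0.0234; lost without WT_LV replicate 3 or KO_LV replicate 1 or 3). Kcnip3, a calcium-binding protein, and Kcns2, a silent pore subunit, fell by 0.30 and 0.28 (adjusted p = 0.0294 and 0.0413), and each was lost without several single arrays. Of the 23 calls, 11 held without each of the 12 arrays in turn and 12 did not (Kcnq5, among the 11, on the probe set used only). Without KO_LV replicate 3, 8 genes were called higher and 4 lower, and without WT_LV replicate 3, 10 and 5. Over all genes these fits called 2487 higher and 1577 lower, and 3242 and 1849, beside 3378 and 2239 on all arrays. The 58 genes not called had differences from -0.28 (Kcng4) to 0.22 (Kcne1l).

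With high against low poly-A control level added to the model, 3 of the 23 calls stood, beside 1.08% of all genes. They were Kcnk1 (1.26, adjusted p = 0.0213), Kcnmb1 (1.56, adjusted p = 0.0477) and Kcnn1 (-0.90, adjusted p = 0.0191). The 20 other differences behaved unlike. Those of Kcnip2 (-0.59), Kcnj14 (-0.53), Kcnmb4 (0.52), Kcns2 (-0.41) and Kcna5 (0.55) kept much of their size or grew, with adjusted p from 0.179 to 0.605. By contrast, Kcnd2, Kcnd3, Kcnj3 and Kcnj5 read -0.02, -0.09, -0.04 and -0.01. Kcnk6, Kcnq5, Kcnip3 and Kcne4 likewise read 0.05, 0.03, -0.04 and -0.07. The error was larger in this fit, with an SE of 0.23 in place of 0.14 for Kcnk1. Genotype and control level are the same split in this ventricle, so their parts cannot be told apart within it for any of the 23 calls. The 3 calls that stood rest on a correction taken from WT_RV replicate 3 alone.

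Markers of other cells moved in the same comparison, in which 30.9% of all genes were called. All 5 macrophage and leukocyte genes rose in KO left ventricles, with list means of 6.77 to 6.996 in WT_LV and 7.74 to 8.004 in KO_LV. In the endothelial and endocardial list 5 of 7 rose (8.66 to 8.96 in WT_LV and 9.31 to 9.54 in KO_LV), led by Cdh5 (1.08) and Npr3 (0.98). Among smooth muscle and pericyte genes 5 of 8 rose and 1 fell, with list means of 8.87 to 9.29 and 9.33 to 9.40. The largest were Tagln, an actin-binding protein (1.68), and the pericyte gene Rgs5 (-1.46), and Myh11, a defining gene of smooth muscle, lay below the median. Of the other lists, heart muscle had 2 of 8 higher, atrial muscle 3 of 5 higher, erythroid cells 1 higher and 1 lower of 5, neurons 1 and 1 of 7, and liver 2 of 5 lower. Only 1 of the 7 neuronal markers lay above the median. The part of these cells in the channel values was not tested. In ventricle tissue fewer cells of a type and less RNA per cell cannot be told apart.

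The right ventricle gave 10 calls among the 81 genes (12.3%), beside 8.19% of all genes. Of these 3 were higher in KO (all genes, 4.61%) and 7 lower (all genes, 3.58%). Among the 34 genes above the median 4 were called (11.8%; all such genes, 10.3%). The median difference was -0.10 beside -0.04 for all genes, and 57 of the 81 differences were below 0. Of these 57, 37 were of genes at or below the median of all values, and the share over all genes was not counted. With quantile normalization once more the median difference was -0.02 beside -0.01 for all genes. Arrays did not overlap for 26 of the 81 genes, beside 29.4% of all genes. The split of 3 higher and 7 lower became 4 and 3 with quantile normalization once more and 3 and 3 with median-centred arrays.

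Kcnk3, the acid-sensitive leak channel, and Kcnj12, an inward rectifier pore, fell most. Kcnk3 read 8.28, 8.31 and 8.11 in WT_RV and 7.57, 7.20 and 7.33 in KO_RV, a fall of 0.87 on the log2 scale (SE 0.17, adjusted p = 0.0065). These 3 KO_RV values lay below all other 9 arrays, which read 8.04 to 8.77. Kcnj12 read 6.43, 6.80 and 6.39 in WT_RV and 5.70, 5.72 and 5.64 in KO_RV, a fall of 0.85 (SE 0.12, adjusted p = 0.000732). Here the WT_RV arrays stood above the rest, since the 9 others read 5.44 to 5.90. Both calls held in all 21 other fits, with Kcnk3 between -0.97 and -0.39 and Kcnj12 between -0.93 and -0.72. Without WT_RV replicate 3, the array that stands apart, both were called as well, which is here the same fit as with the control level.

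Kcnn2 rose by 0.30 (SE 0.08, adjusted p = 0.0267), from 6.58, 6.55 and 6.58 to 6.88, 6.85 and 6.89, so that the groups were narrow and did not touch. Its call was lost without WT_RV replicate 2 or any one KO_RV array (0.29 to 0.32). Below the median, Kcnk16, a two-pore-domain gene, fell by 0.43 (adjusted p = 0.0325) and Kcnq3, a pore subunit that partners Kcnq5 and others, by 0.34 (adjusted p = 0.0277). Both were lost without several single arrays. The transient outward pore Kcnd3 read 6.73, 6.89 and 6.22 in WT_RV and 6.27, 6.21 and 6.09 in KO_RV, a difference of -0.42 that was not called (SE 0.15, adjusted p = 0.102). WT_RV replicate 3 lay with the KO arrays, and without it the difference was -0.62 (adjusted p = 0.0114). With the replicate number as a block, Kcnd3 was called at -0.42 (adjusted p = 0.0296), and the lower calls went from 7 to 10, with Kcns2 and Kcnt1 also gained.

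The other cardiac subunits were not called in the right ventricle. Kcna5 differed by 0.44 (adjusted p = 0.182), Kcnj3 by 0.59 (0.153), Kcnd2 by 0.23 (0.362), Kcne1 by 0.20 (0.294), Kcnj5 by 0.14 (0.43), Kcna4 by 0.09 (0.718), Kcnj2 by 0.03 (0.886), Kcnq1 by -0.02 (0.939), Kcnip2 by -0.12 (0.662) and Kcnj11 by -0.12 (0.43). Kcnj3 was called without WT_RV replicate 1 (0.85, adjusted p = 0.0415). Of the 10 calls, 3 held without each array in turn, those of Kcnj12, Kcnk3 and Kcnmb1. Without KO_RV replicate 1, 2 or 3 the calls numbered 1 higher and 3 lower, 2 and 2, and 1 and 2, and without WT_RV replicate 2 they numbered 1 and 3. Calls over all genes fell too, from 838 higher and 652 lower. In the same order they numbered 447 and 315, 529 and 375, 456 and 380, and 574 and 449. Without WT_RV replicate 3, Kcnab1, Kcne2, Kcnk16 and Kcnmb2 were lost and Kcnd3, Kcne3 (0.88) and Kcnh1 (-0.59) were gained. The 71 genes not called had differences from -0.42 (Kcnd3) to 0.59 (Kcnj3).

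**Figure D2:**
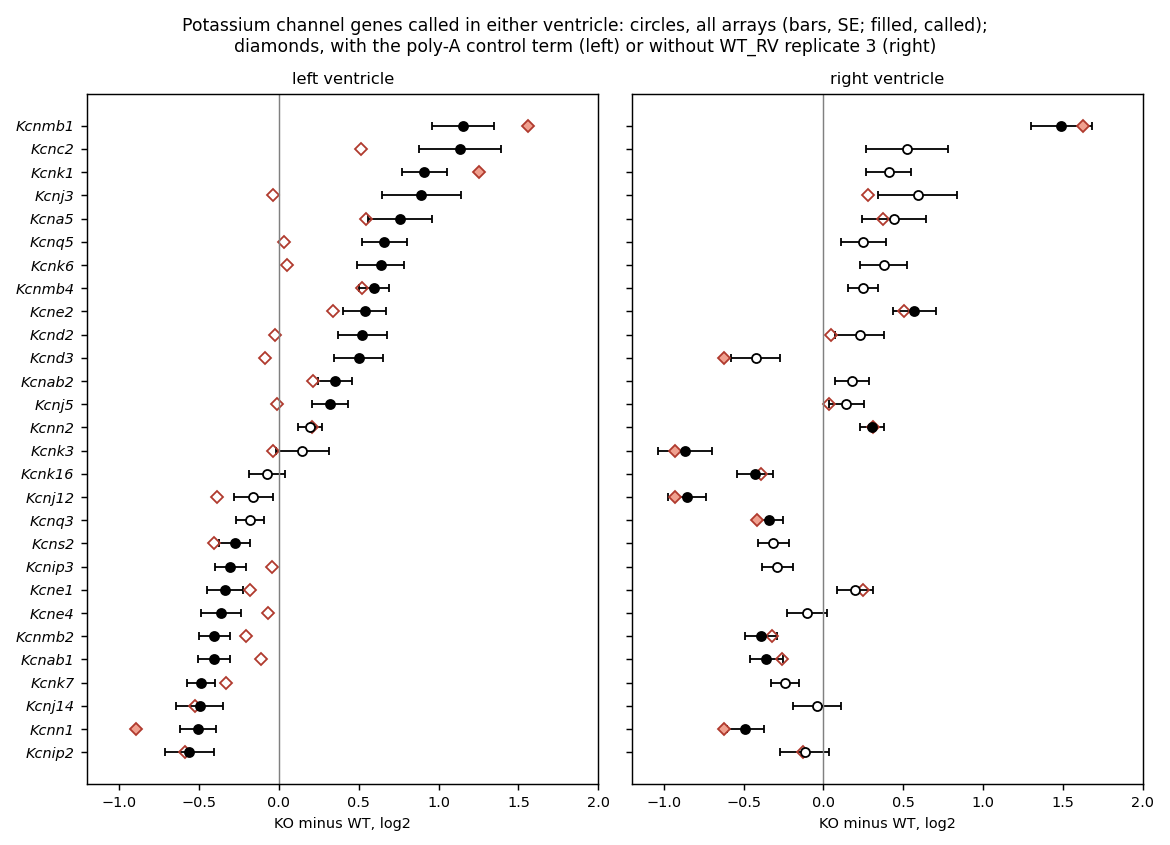
KO minus WT differences (log2) of the 28 genes called in at least 1 ventricle, left ventricle in the left panel and right ventricle in the right panel; circles are the fit on all arrays with SE bars, filled where called, and diamonds are values with high against low control level in the model (left) or without WT_RV replicate 3 (right), filled where called and drawn for the genes named in that comparison. In the left panel 3 of the 23 called genes, Kcnmb1, Kcnk1 and Kcnn1, have filled diamonds; in the right panel Kcnmb1, Kcnj12 and Kcnk3 lie farthest from 0.

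The right ventricular differences had fewer called markers beside them, in a comparison that called 8.19% of all genes against 30.9% in left ventricles. Macrophage and leukocyte genes had 2 of 5 higher (6.79 to 6.93 in WT_RV and 7.17 to 7.40 in KO_RV), endothelial and endocardial genes 1 of 7 and smooth muscle and pericyte genes 1 of 8, Tagln (2.22). Atrial muscle had 1 of 5 higher, neurons 1 of 7 lower, erythroid cells 2 of 5 lower, and heart muscle and liver genes had 0 called. The median difference of the liver genes was nonetheless -1.32, beside 0.04 for the heart muscle genes. The part of these cells in the channel values was not tested.

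Both genotype comparisons called 5 genes in the same direction, which were 21.7% of the left and 50.0% of the right ventricular calls. Over all genes the shares were 20.2% and 76.2%. The comparisons use different arrays but share the estimate of the spread and the strain difference. The KO_LV and KO_RV arrays were also taken to be paired by number, so the calls are not independent. Kcnmb1 and Kcne2 were higher in KO in both ventricles, and Kcnmb2, Kcnab1 and Kcnn1 lower. Kcnn1, a small-conductance calcium-activated channel, fell by 0.51 in left ventricles (SE 0.11, adjusted p = 0.00504). In right ventricles it fell by 0.49 (SE 0.11, adjusted p = 0.0187). Its WT arrays read 5.68 to 6.16 and its KO arrays 5.13 to 5.51. Kcnab1, a cytoplasmic subunit of voltage-gated pores, fell by 0.41 and 0.36 (adjusted p = 0.0089 and 0.0473), and the right ventricular call was lost without any one of 9 arrays. Kcne2 rose by 0.54 and 0.57 (adjusted p = 0.00858 and 0.0189), and its right ventricular call was lost without WT_RV replicate 2 or 3 or KO_RV replicate 1 or 3 (0.49 to 0.58). Kcnn1 in right ventricles was lost without WT_RV replicate 2 or any one KO_RV array (-0.40 to -0.50).

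Kcnmb1 and Kcnmb2 encode beta subunits of the large-conductance calcium-activated channel and were called in opposite directions in both ventricles. Kcnmb1, the subunit known from smooth muscle, read 4.32, 4.09 and 4.74 in WT_LV, 4.13, 4.22 and 4.58 in WT_RV, 5.31, 5.31 and 5.99 in KO_LV, and 5.74, 5.72 and 5.94 in KO_RV. All 6 KO values lay above all 6 WT values. The rise was 1.15 (SE 0.19, adjusted p = 0.000836) in left and 1.49 (SE 0.19, adjusted p = 0.00036) in right ventricles, the largest of the 81 genes in each, and the call held in all 20 other fits that tested it (0.76 to 1.56 in left and 0.82 to 1.63 in right ventricles, lowest with the mean of its probe sets). Its second probe set, with a mean of 4.92, gave 0.37 and 0.15. The WT values lay under the median of all values. Kcnmb2, which closes the channel soon after it opens, read 5.94 to 5.99 in WT_LV, 5.84 to 6.06 in WT_RV, 5.41 to 5.64 in KO_LV and 5.38 to 5.68 in KO_RV. It fell by 0.40 in left ventricles (SE 0.10, adjusted p = 0.00818), a call lost with the mean of its probe sets (-0.17) and with the control level in the model (-0.21), and its second probe set, below the median, gave 0.06. In right ventricles it fell by 0.39 (SE 0.10, adjusted p = 0.0293), and the right ventricular call was lost without WT_RV replicate 2 or 3 or KO_RV replicate 2 or 3 (-0.31 to -0.41). Kcnma1, the pore that both join, differed by -0.06 (adjusted p = 0.707) and -0.16 (adjusted p = 0.363). Of the smooth muscle and pericyte list, Tagln rose by 1.68 and 2.22 in left and right ventricles, Myh11 differed by -0.26 and -0.28 (adjusted p = 0.102 and 0.148), and Rgs5 fell by 1.46 in the left and differed by -0.91 in the right (adjusted p = 0.0625); their part in the Kcnmb1 values was not tested.

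The stretch before the start of these genes is shown for the pair called in opposite directions and for Kcnj12, whose value stood apart in one group. Each runs over 250 bases upstream of a RefSeq start on the plus strand of GRCm38.p6, at chr11:33962763-33963012 for Kcnmb1, chr3:31902453-31902702 for Kcnmb2 and chr11:61065554-61065803 for Kcnj12, with CpG dinucleotides in capitals.
Kcnmb1: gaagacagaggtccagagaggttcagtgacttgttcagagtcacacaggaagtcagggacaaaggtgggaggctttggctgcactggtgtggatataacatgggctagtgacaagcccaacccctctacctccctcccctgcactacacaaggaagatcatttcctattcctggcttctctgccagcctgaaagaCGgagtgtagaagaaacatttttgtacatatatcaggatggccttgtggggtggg
Kcnmb2: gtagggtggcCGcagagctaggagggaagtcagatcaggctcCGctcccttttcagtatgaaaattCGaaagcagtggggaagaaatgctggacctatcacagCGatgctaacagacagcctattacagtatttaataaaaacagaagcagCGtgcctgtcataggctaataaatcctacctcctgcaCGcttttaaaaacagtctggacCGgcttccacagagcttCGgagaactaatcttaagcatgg
Kcnj12: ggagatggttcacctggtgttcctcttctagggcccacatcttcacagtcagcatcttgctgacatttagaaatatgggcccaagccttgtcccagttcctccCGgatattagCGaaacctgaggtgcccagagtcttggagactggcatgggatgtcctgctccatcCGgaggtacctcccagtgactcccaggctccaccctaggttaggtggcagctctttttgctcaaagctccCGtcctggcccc
They hold 1, 8 and 4 CpG dinucleotides, beside a median of 6 over all promoters in the table and 7 over the 86 promoters of the 61 channel genes it lists. On either strand none of the 3 holds a CArG box (1.47% of all promoters do), a Mef2 box (2.92%), GATAA (22.6%) or AGGTGT, core letters of T-box sites (11.8%). Among the 86 channel gene promoters the shares were 0%, 2.33%, 16.3% and 16.3%. A missing match says only that these letters are not in this window.

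**Figure D3:**
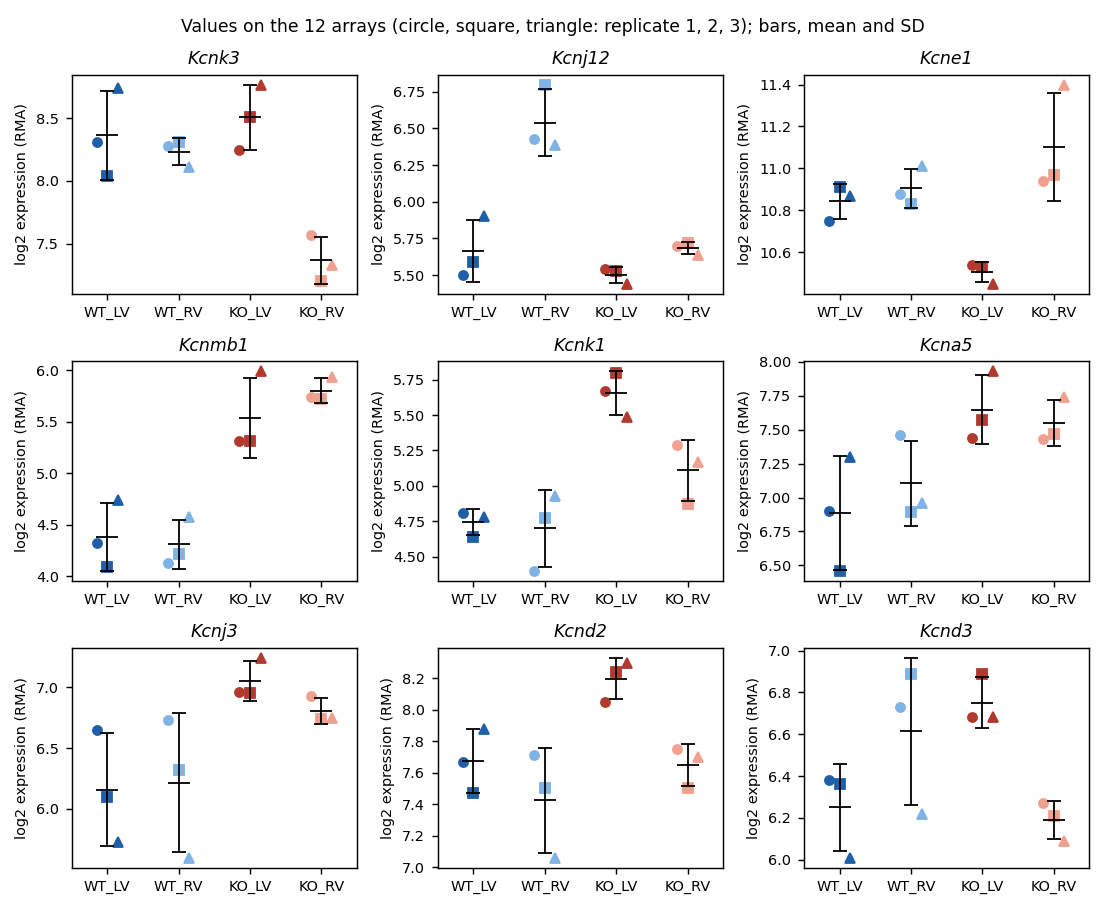
Log2 values of 9 genes on each of the 12 arrays by group (circle, square and triangle for replicates 1, 2 and 3), with the mean and SD as bars; vertical scales differ between panels. Kcnk3 is low only in the 3 KO_RV arrays, Kcnj12 is high only in the 3 WT_RV arrays, and for Kcnmb1 all 6 KO arrays lie above all 6 WT arrays.

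The right and left ventricles were compared within each genotype. In WT, 1 of the 81 genes was called, beside 0.984% of all genes. This was Kcnj12, higher in the right ventricle by 0.88 (SE 0.12, adjusted p = 0.00281), from 5.50, 5.59 and 5.90 in WT_LV to 6.43, 6.80 and 6.39 in WT_RV. With the poly-A control term it was 0.73 and not called, and it was not called with the 2 groups fitted alone. WT_RV replicate 3 bears on this comparison. Without it, 6 genes were called, beside 9.53% of all genes: Kcnj12 (0.95), Kcnd3 (0.56), Kcnk6 (0.47) and Kcnq3 (0.35) higher and Kcne3 (-0.85) and Kcne4 (-0.60) lower in the right ventricle. Kcne3, a single-span subunit, read 6.86 and 6.57 on the other WT_RV arrays, 7.65 on replicate 3 and 7.53 to 7.64 in WT_LV, so that replicate 3 lay with the left ventricles.

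In KO, 2 genes were called, beside 1.14% of all genes. Kcnk3 was lower in the right ventricle by 1.14 on the log2 scale (difference -1.14, SE 0.17, adjusted p = 0.0033), from 8.25, 8.51 and 8.77 in KO_LV to 7.57, 7.20 and 7.33 in KO_RV, and was called in all 21 other fits (-1.27 to -0.56). Kcne1 was higher by 0.60 (SE 0.11, adjusted p = 0.0197), from 10.54, 10.53 and 10.45 to 10.94, 10.97 and 11.40, with no overlap. Its call was lost without any single KO_LV array (0.57 to 0.61) or KO_RV replicate 3 (0.45). With the replicate number as a block Kcnd3 was also called, at -0.56 (adjusted p = 0.0258; all genes, 1.67%). Without WT_RV replicate 3, which enters only through the shared spread, Kcnd2 (-0.55), Kcnd3 (-0.56) and Kcnq5 (-0.38) were called too, beside 1.76% of all genes. Macrophage and leukocyte markers had 2 of 5 lower in KO right than left ventricles and atrial markers 1 of 5 higher, Myl7 (0.49, adjusted p = 0.0273), and the part of these cells was not tested. Of the genes whose products work beside these channels, 1 of 14 measured was higher, Abcc8 (0.48, adjusted p = 0.0398).

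Whether the genotype difference itself depends on the ventricle was tested as the interaction. None of the 81 genes was called by limma (0, with 11 at an unadjusted p under 0.05; 0 with an intensity trend and robust variances), beside 0.022% of all genes. The largest interactions were those of Kcnk3 (-1.01, SE 0.24), Kcnd3 (-0.92, SE 0.22), Kcne3 (0.73, SE 0.28) and Kcnj12 (-0.69, SE 0.17), each with an adjusted p of 0.314. For Kcnk3 and Kcnj12 a call in the right and none in the left ventricle is thus not shown to be a difference between ventricles by the fit on all arrays. Without WT_RV replicate 3, 5 genes were called, beside 7.19% of all genes: Kcnd3 (-1.12), Kcnk3 (-1.08), Kcnj12 (-0.77) and Kcnq5 (-0.62), for which KO minus WT was lower in the right ventricle, and Kcne3 (1.04), for which it was higher.

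Further probe sets of a gene did not always read alike. Of the 7 genes with more than 1 probe set above the median, the left ventricular differences had unlike signs in 4 (Kcna4, Kcnc4, Kcne1 and Kcnq5) and the right ventricular ones in 3 (Kcnc4, Kcnd2 and Kcnq5). For Kcne1 the brightest probe set gave -0.34 in left ventricles and the other, with a mean of 8.54, gave 0.41. For Kcnq5 the values were 0.66 and -1.40, from 7.80, 7.99 and 7.14 in WT_LV and 6.60, 6.91 and 5.21 in KO_LV on the second probe set, so that the gene has no settled direction here. The second probe set of Kcnk3, with a mean of 6.61, read 6.48, 6.79 and 6.70 in WT_RV and 6.34, 6.55 and 6.37 in KO_RV, a smaller difference of -0.24 with overlapping arrays. It gave -0.46 for right minus left ventricle in KO. A further probe set of Kcnk1, below the median, gave 0.34 and 0.15 in left and right ventricles. With the mean of all probe sets of a gene, Kcne1 became 0.04 and Kcnq5 -0.29 in the left ventricle and neither was called. The left ventricular calls of Kcnd2, Kcnd3, Kcnip2, Kcnj3, Kcnj5, Kcnab1, Kcnab2, Kcnmb2 and Kcns2 were lost in that fit as well.

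**Figure D4:**
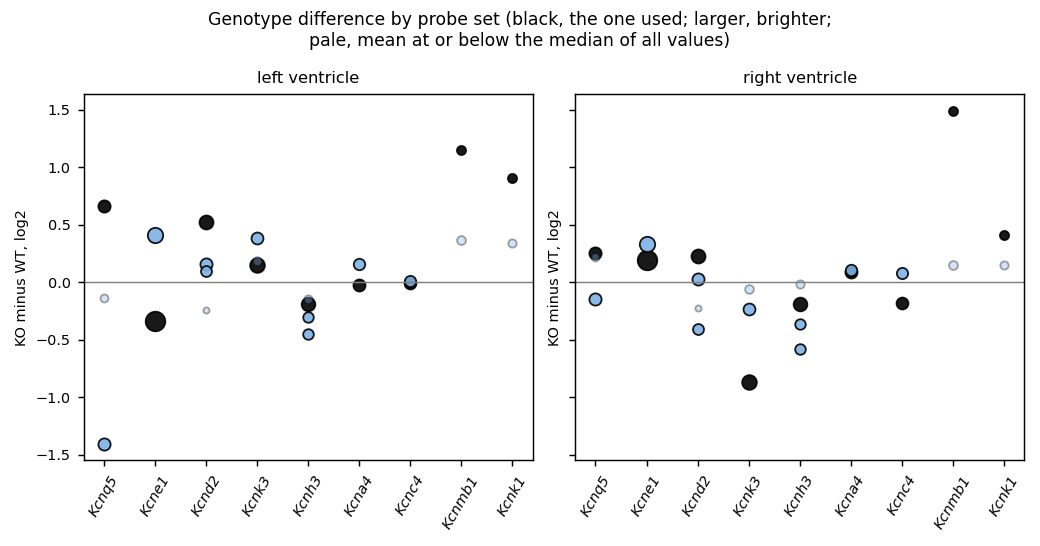
KO minus WT differences (log2) by probe set for Kcnmb1, Kcnk1 and the 7 genes that have at least 2 probe sets above the median, in left and right ventricles; black marks the probe set used, larger points are brighter, and pale points have a mean at or below the median of all values. The probe sets of Kcnq5 and Kcne1 fall on both sides of 0 in the left ventricle, and in the right ventricle the Kcnk3 probe set used lies below its others.

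Of 20 genes whose products work beside these channels, such as the sulfonylurea receptors, calcium and sodium channels and the sodium pump, 14 were measured. In left ventricles 2 were higher in KO, Cacna2d1, a calcium channel subunit (0.50), and Atp1b1, a sodium pump subunit (0.37), and 1 lower, Abcc8, a sulfonylurea receptor that joins the ATP-sensitive channel (-0.47). In right ventricles Cacna2d1 was higher (0.45) and Abcc8 lower (-0.43). Kcnj11, the pore that Abcc8 joins, was called in neither ventricle.

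Some of the 81 genes are neighbours. By gene order in the RefSeq table, 79 could be placed, and 9 pairs of them were adjacent. Of the neighbours of Kcna5 on chromosome 6 and of Kcnj5 on chromosome 9, Kcna1 (-0.25) and Kcnj1 (0.01) were not called in left ventricles, and Kcnip1, next to Kcnmb1 on chromosome 11, differed by 0.07. Kcnk3 was the only one within 100 protein-coding genes of Nos3, at 65 genes from it, on a chromosome that also carries the targeted allele. Strain and allele cannot be told apart there either.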

How the data were processed

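Biotin-labelled cRNA made from 100 ng of ventricular RNA went onto 12 Affymetrix arrays, as the labels' protocols state. The authors deposited log2 expression of 45101 probe sets, computed with RMA per the submitters' processing notes, with values from 2.42 to 15.19. RMA equalises the arrays before it summarises the probes of a probe set, so a change common to most genes can be lost. The deposited values were not fully equal in distribution. Their array medians ran from 5.57 (KO_LV replicate 3) to 5.74 (WT_LV replicate 2). The RMA version, genome build and annotation were not given in the sources used here, and scanner files were not analysed here. Columns were matched to samples by label.

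A gene was named only from the 34958 probe sets with a single platform symbol; 932 had several and 9211 had none. All 81 channel genes matched the RefSeq table (GRCm38.p6) by gene ID, and 61 had promoters in RefSeq's promoter table of that build. Differences were tested with limma 3.58.1 (lmFit and eBayes; R 4.3.3) in one model with 4 group means (8 residual degrees of freedom), with p-values adjusted by Benjamini-Hochberg over the 18194 genes and called under 0.05; all adjusted p-values are limma's. The script was tested on simulated data. The alternatives were 9 other settings, among them a term for high against low poly-A control level, and each array left out.

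The replicate numbers come from the sample titles. Deviations of same-numbered arrays correlated at 0.11, 0.26 and 0.31 between WT_RV and KO_RV and at 0.21, 0.29 and 0.26 between KO_LV and KO_RV, so the numbers were taken to pair those arrays; between WT_LV and KO_LV they were 0.011, 0.14 and 0.42, and between WT_LV and WT_RV 0.23, -0.01 and 0.15, which did not pair them. The channel genes, lists and tests were chosen with earlier results of these data known. The genes named are the subunits of cardiac currents, the called genes above the median, the 3 largest called rises and falls among the others, all genes called between ventricles, the brightest of each class, and up to 2 called in each direction of each marker or partner list. Kcne2 and Kcnip3 in left ventricles, Kcns2, Kcnq3, Kcnj4, Kcnj16, Kcnc4, Kcnma1, Kcne3, Kcnh1, Kcnt1 and the genes given as extremes or neighbours were named after their values were seen.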

Additional observations from a re-analysis of the deposited data

How the results depend on the processing

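Of the single-gene results, 944 values under another setting kept their direction and their side of the threshold, 141 lost the call, 6 gained one and 26 changed sign. Of called genes the sign changed, in left ventricles, for Kcnd2 (-0.022), Kcnd3 (-0.09), Kcnj3 (-0.035) and Kcnj5 (-0.01) with the poly-A control term, and Kcne1 (0.038) and Kcnq5 (-0.29) with the mean of the probe sets. The other sign changes were of genes not called. In left ventricles they were those of Kcna4 (0.073 with median centring, 0.068 with the mean of the probe sets), Kcnj11 (-0.048 with quantile normalization) and Kcnk3 (-0.038 with the control term), and with 1 array left out Kcna4 ran from -0.16 to 0.055, Kcnj2 from -0.053 to 0.12 and Kcnk3 from -0.015 to 0.335. In right ventricles they were those of Kcna4 (-0.022 with the control term), Kcnd2 (-0.094) and Kcnj5 (-0.025) with the mean of the probe sets, and Kcnq1 (0.017 with median centring), and with 1 array left out Kcna4 ran from -0.022 to 0.19, Kcnj2 from -0.043 to 0.15 and Kcnq1 from -0.12 to 0.072. Against 13 higher and 10 lower calls in left ventricles (all genes, 3378 and 2239), the mean of the probe sets gave 7 and 5 (all genes, 2599 and 2025). The control term gave 2 and 1 (all genes, 134 and 63), and centring arrays on the median gave 5 lower (all genes, 1212). Leaving out dim genes took the 47 genes at or below the median out of the test. The 34 above it had 10 higher and 5 lower calls in that fit, beside 9 and 5 in the main fit. Against 3 higher and 7 lower calls in right ventricles (all genes, 838 and 652), quantile normalization once more gave 3 lower (all genes, 625). Median centring gave 3 lower (all genes, 374), and the 2 groups alone 4 lower (all genes, 391). Leaving out dim genes gave 1 and 3, the same counts as the main fit gave for the 34 genes above the median. For right minus left ventricle in WT (1 higher, 0 lower), a random replicate block gave 2 and 1, and the 2 groups alone and the control term each gave 0 higher. In KO (1 and 1), the mean of the probe sets gave 0 higher, the fixed and the random replicate block 2 lower each, the 2 groups alone 3 lower and the control term 4 lower. Leaving out 1 array at a time gave 8 to 13 higher and 4 to 11 lower in left ventricles, 1 to 4 and 2 to 8 in right ventricles, 0 to 1 and 0 to 4 for the interaction, 1 to 4 and 0 to 2 for right minus left ventricle in WT, and 0 to 1 and 1 to 4 in KO. The lowest left ventricular counts, 8 and 4, came without KO_LV replicate 3 (all genes, 2487 and 1577). Over all genes, leaving out 1 array gave 2487 to 3715 higher and 1421 to 2604 lower in left ventricles. In right ventricles it gave 447 to 1095 and 315 to 784. Apart from the calls named with the results, the fixed replicate block changed no call of a named gene. In right ventricles it gave 10 lower calls, beside 945 over all genes. Between 34 and 36 genes lay above the median with 1 array left out, 23 with the mean of the probe sets and 27 counted on every array. With 3 arrays a group and many values near background, a missing call does not show that a gene was unchanged.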
